A study of Mus musculus with 12 samples.

Results

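The genes described here encode 8 SOX transcription factors of the developing cortex, Sox1, Sox2, Sox3, Sox4, Sox9, Sox11, Sox12 and Sox21, and every probe set that the platform annotation assigns to one of these symbols was taken. That gave 27 of the 45101 probe sets on the array, of which 20 passed the filter on low values, and each of the 8 genes kept at least 1 probe set among the 11449 genes tested. The study used 12 Affymetrix expression arrays, 3 in each of 4 groups of 129/Sv mice. The groups were adult dorsal cerebral cortex of Qkf gt/gt mutants aged 155, 112 and 99 days, adult dorsal cerebral cortex of wild types aged 155, 112 and 101 days, dorsal telencephalon of Qkf gt/gt mutant embryos at E12.5 (a day of gestation), and dorsal telencephalon of wild-type embryos of the same age. Qkf is another name of Kat6b, the gene of a histone acetyltransferase, and gt stands for a gene-trap allele that is present constitutively and on both chromosomes in the mutants. All adults were male by label. The labels give no sex for the embryos but give their parents, from which 1 mutant and 1 wild-type array came from a first cross and 2 mutant and 2 wild-type arrays from a second cross. The sources used here do not say whether each embryonic array held RNA of 1 embryo or of a pool.

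SOX proteins bind DNA through a high mobility group (HMG) box, usually together with a partner factor, and are sorted into groups by the similarity of that box. The SoxB1 factors SOX1, SOX2 and SOX3 keep neural stem and progenitor cells in a dividing, undifferentiated state, and the SoxB2 factor SOX21 counteracts them and promotes differentiation. SOX9, of group E, is used by radial glia and later by astrocytes. The SoxC factors SOX4, SOX11 and SOX12 act in cells that have left the progenitor state and are turning into neurons, where they bind genes of the neuronal programme such as Tubb3 and Dcx.

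The start sites of 6 of the 8 genes are in the RefSeq promoter table for GRCm38.p6. The 250 bases upstream of the start are shown for the 3 SoxC genes and for Sox2 as the best known SoxB1 gene. They are written 5′ to 3′ on the strand of the gene, and capitals mark, on either strand, the CCAAT box (CCAAT), the GC box (GGGCGG), the octamer (ATGCAAAT) and the TATA box (TATAAA).
Sox4, chr13:28953700-28953949, minus strand: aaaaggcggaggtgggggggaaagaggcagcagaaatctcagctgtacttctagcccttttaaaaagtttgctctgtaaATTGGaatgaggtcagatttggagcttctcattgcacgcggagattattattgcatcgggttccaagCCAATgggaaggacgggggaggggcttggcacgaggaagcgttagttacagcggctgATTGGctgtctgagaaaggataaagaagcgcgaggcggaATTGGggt
Sox11, chr12:27342719-27342968, minus strand: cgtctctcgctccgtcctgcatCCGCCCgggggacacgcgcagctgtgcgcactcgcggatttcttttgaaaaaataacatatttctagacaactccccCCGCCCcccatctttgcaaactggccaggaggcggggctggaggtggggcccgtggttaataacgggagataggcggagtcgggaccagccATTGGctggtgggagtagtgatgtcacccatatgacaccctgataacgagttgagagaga
Sox12, chr2:152398047-152398296, minus strand: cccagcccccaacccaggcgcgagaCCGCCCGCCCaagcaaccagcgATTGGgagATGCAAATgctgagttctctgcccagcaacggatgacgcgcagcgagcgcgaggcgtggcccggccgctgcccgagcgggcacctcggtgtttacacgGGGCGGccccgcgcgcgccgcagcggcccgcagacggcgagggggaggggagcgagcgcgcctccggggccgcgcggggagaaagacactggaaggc
Sox2, chr3:34649745-34649994, plus strand: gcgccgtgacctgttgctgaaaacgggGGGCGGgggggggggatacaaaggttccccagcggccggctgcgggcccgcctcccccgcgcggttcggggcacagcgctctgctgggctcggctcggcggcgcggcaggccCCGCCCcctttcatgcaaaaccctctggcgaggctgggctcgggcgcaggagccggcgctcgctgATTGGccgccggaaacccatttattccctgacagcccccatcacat

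The upstream sequences of the SoxC genes differed in composition and in the motifs they hold. Sox4 had a GC content of 50.8% and 11 CpG dinucleotides, with 4 CCAAT boxes and 0 GC boxes. Sox11 had 58.0% GC and 17 CpG, with 1 CCAAT box and 2 GC boxes. Sox12 had 74.4% GC and 35 CpG, with 1 CCAAT box, 3 GC boxes of which a pair overlap each other, and 1 octamer, the site that POU factors bind. Sox2 stood near Sox12 in composition, at 72.0% GC and 27 CpG, with 1 CCAAT box and 2 GC boxes. The other two genes with an entry were Sox1, with 71.2% GC and 29 CpG, and Sox21, with 65.2% GC, 17 CpG and none of the 4 motifs. Over all 32851 upstream sequences of the same length the median was 52.4% GC and 6 CpG, and 33.8% held a CCAAT box, 32.7% a GC box, 12.4% a TATA box and 1.6% the octamer. An E-box (CANNTG), a SOX core (ACAATG or ACAAAG) and the cAMP response element (TGACGTCA) were also searched on both strands. They occur in 66.2%, 10.7%, 16.5% and 1.55% of all sequences in that order of motifs, and Sox2 held the only SOX core among the 6 genes, 1 match to ACAAAG. A match is a run of letters and was not tested as a binding site.

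Kat6b, the targeted gene, checks the labels. Its brightest probe set stood at log2 values of 7.25, 7.17 and 6.92 in mutant adults, against 9.68, 9.35 and 9.72 in wild-type adults. In the embryos it stood at 6.22, 7.24 and 7.72 in mutants, against 11.28, 11.40 and 11.42 in wild types. All mutant arrays lay below all wild-type arrays of their stage. The position of its probes relative to the gene-trap insertion was not determined.

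The tissue labels were set against marker genes of each stage, as means of the log2 values of a list. Markers of mature neurons stood at 12.60 to 12.98 on the adult arrays and at 5.50 to 5.64 on the embryonic arrays, and those of mitotic cells at 2.20 to 2.26 on adult and at 10.87 to 10.99 on embryonic arrays. All 5 mitotic markers measured passed the filter through the embryos alone and so had to be lower in adults. Among the 6 mature neuron markers Nrgn passed it through the adults alone. Array medians ran from 3.64 to 3.74, and 29.4% to 30.9% of the values of an array lay within 0.01 of the lowest value of the data set, called the floor below. Arrays of a group correlated at 0.994 to 0.997 in adults and at 0.989 to 0.995 in embryos. Both embryos of the first cross stood apart in Dlx2, a gene of the neighbouring ventral telencephalon, at 8.43 in the mutant and 9.04 in the wild type, against 3.20 to 5.80 in the other 4 embryos. The choroid plexus gene Ttr stood at 15.16 in mutant adult 3 and at 6.78 to 9.18 in the other adults. The difference between the 3′ and 5′ actin control probe sets, a sign of RNA quality, was 1.91 in mutant adult 1 and 1.47 in mutant adult 2, against 1.06 to 1.13 in the other 4 adults. Xist, the marker of a second X chromosome, was high in mutant embryo 3 and in wild-type embryos 1 and 2.

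All 8 Sox genes were lower in adult cortex than in embryonic telencephalon, in mutants and in wild types alike. The log2 difference between adults and embryos in wild types ran from -7.47 for Sox3 to -2.60 for Sox9, and limma's adjusted p lay between 1.58e-11 and 2.54e-08. In mutants it ran from -7.64 to -2.49, with adjusted p between 1.24e-11 and 5.01e-08. Most genes differ between the stages, and 42.2% of all genes tested passed the test as lower and 39.5% as higher in adult mutants, and 43% as lower and 38.4% as higher in adult wild types. The median difference of the 8 genes was -3.82 in wild types and -3.52 in mutants, beside -0.08 and -0.05 over all genes tested. Every adult array lay below every embryonic array for each of the 8 genes, which held for 44.5% of all genes in wild types and 42.4% in mutants. In bulk tissue, fewer cells that make an RNA and less of it per cell cannot be told apart. Stage also goes with the region dissected and, for the embryos, with an unlabelled sex.

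**Figure D1:**
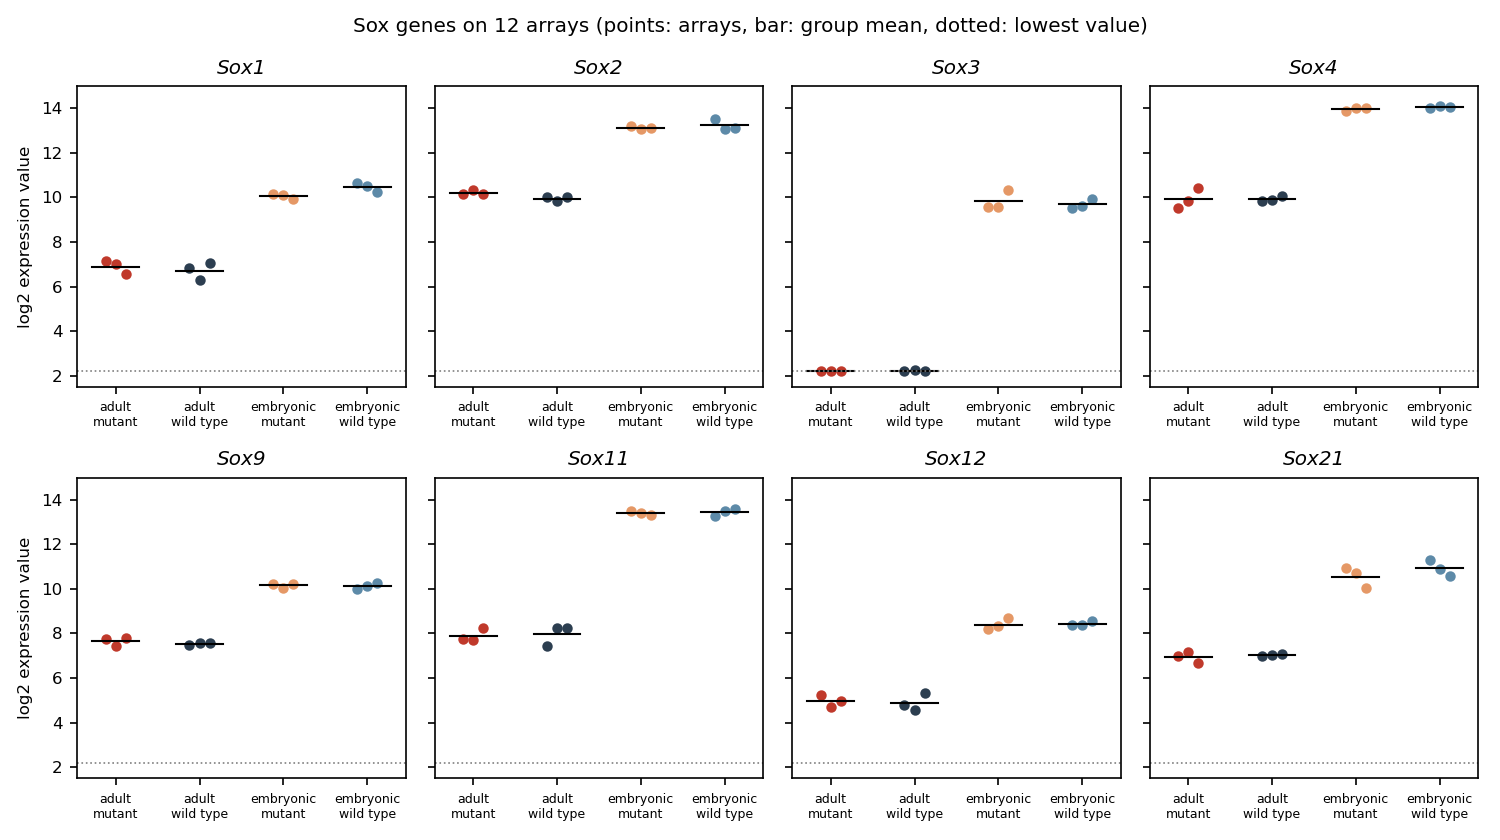
Log2 expression value (vertical axis) of the probe set that stands for each of the 8 Sox genes on each array, for adult mutants, adult wild types, embryonic mutants and embryonic wild types from left to right; points are arrays, bars group means and the dotted line the lowest value of the data set. Each gene has its adult points below its embryonic points, Sox3 lies at or next to the lowest value on all adult arrays, and within a stage the mutant and wild-type points mostly overlap.

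Among the SoxB1 genes, Sox2, which is needed to maintain neural stem cells, remained well above the floor in the adult. Its single probe set stood at 10.17, 10.32 and 10.16 in mutant adults and at 10.03, 9.82 and 9.997 in wild-type adults. In the embryos it stood at 13.19, 13.06 and 13.11 in mutants and at 13.52, 13.07 and 13.10 in wild types. The stages lay about 3 log2 units apart in both genotypes. The adult level was 7.51-fold lower than the embryonic level in mutants (log2 difference -2.91, 95% interval -3.19 to -2.63) and 9.71-fold lower in wild types (-3.28, -3.56 to -3.00).

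Sox1, the earliest of the group to mark neural tissue in the mouse embryo, had a similar span. Its main probe set stood at 7.13, 6.99 and 6.57 in mutant adults and at 6.82, 6.28 and 7.05 in wild-type adults. In the embryos the values were 10.13, 10.10 and 9.92 in mutants and 10.63, 10.52 and 10.22 in wild types. The adult arrays thus kept a signal that the embryonic arrays exceeded by a margin wider than the whole range within any group. The adult level was 8.89-fold lower in mutants (-3.15, -3.60 to -2.70) and 13.4-fold lower in wild types (-3.74, -4.19 to -3.29). A second Sox1 probe set lay at the floor on 10 arrays and did not pass the filter.

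Sox3, the X-linked member, was the gene with no clear adult signal. Its main probe set was at the floor of 2.19 in all 3 mutant adults and stood at 2.19, 2.27 and 2.19 in wild-type adults. In the embryos it stood at 9.56, 9.57 and 10.35 in mutants and at 9.53, 9.62 and 9.91 in wild types. The differences of -7.64 in mutants and -7.47 in wild types therefore rest on adult values at the floor and understate the change. This probe set passed the filter through the embryos alone and so had to differ between the stages. Since the embryos were of mixed sex pattern, the values were also set by Xist. They were 9.53, 9.62 and 10.35 in the 3 embryos with Xist and 9.56, 9.57 and 9.91 in the 3 embryos with Y-linked RNA, and these ranges overlapped.

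Sox21, the SoxB2 gene, had 2 probe sets, and both were lower in the adult. The main one stood at 6.97, 7.15 and 6.70 in mutant adults and at 6.97, 7.03 and 7.10 in wild-type adults. It stood at 10.92, 10.70 and 10.02 in mutant embryos and at 11.31, 10.91 and 10.58 in wild-type embryos. Adults were 12.2-fold lower in mutants (-3.61, -4.12 to -3.09) and 14.9-fold lower in wild types (-3.90, -4.42 to -3.38). For the second probe set, 1451835_at, which lay below 3 on all adult arrays, the stage differences were -4.13 in mutants and -4.91 in wild types. This second one passed the filter through the embryos alone and so had to differ between the stages.

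Sox9, which radial glia and astrocytes share, had the smallest stage difference of the 8 genes. It stood at 7.77, 7.45 and 7.80 in mutant adults and at 7.47, 7.57 and 7.57 in wild-type adults. In the embryos the values were 10.21, 10.05 and 10.24 in mutants and 9.98, 10.15 and 10.28 in wild types. The groups of a stage were tightly packed, and the adults were 5.63-fold lower in mutants (-2.49, -2.76 to -2.23) and 6.07-fold lower in wild types (-2.60, -2.87 to -2.33). The second Sox9 probe set gave -2.33 in mutants and -2.21 in wild types. All 8 astrocyte markers measured were higher in the adult, where 38.4% of all genes were, with a median difference of 4.91 in wild types beside -0.08 over all genes. Of these 8, Aqp4, Aldh1l1 and S100b passed the filter through the adults alone and so had to differ.

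The SoxC gene Sox4 kept a clear adult signal. Its values were 9.53, 9.83 and 10.41 in mutant adults and 9.83, 9.88 and 10.06 in wild-type adults. Mutant adult 3 was the highest and mutant adult 1 the lowest of the adults. In the embryos the values were 13.88, 14.00 and 14.01 in mutants and 14.00, 14.11 and 14.06 in wild types. The adult level was 16.5-fold lower in mutants (-4.04, -4.44 to -3.64) and 17.6-fold lower in wild types (-4.13, -4.54 to -3.73).

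Of the 8 Sox4 probe sets 5 passed the filter, and they gave stage differences between -6.09 and -4.04 in mutants and between -5.96 and -4.13 in wild types. The probe set that stands for the gene, chosen by its high mean, thus had the smallest difference of the 5. One of the others, 1419157_at, lay near the floor on all adult arrays, with values of 2.19 to 2.21, and at 8.21 to 8.32 in mutant embryos and 7.07 to 8.85 in wild-type embryos. It gave the -6.09 in mutants, but it passed the filter through the embryos alone and so had to differ between the stages. Its lowest embryonic value belonged to the wild type of the first cross.

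Sox11, which is needed for the survival and maturation of newborn neurons, had the largest difference among genes measured above the floor at both stages. Its main probe set stood at 7.75, 7.69 and 8.23 in mutant adults and at 7.44, 8.23 and 8.26 in wild-type adults. It stood at 13.51, 13.41 and 13.31 in mutant embryos and at 13.29, 13.51 and 13.58 in wild-type embryos. The adult level was 45.9-fold lower in mutants (-5.52, -5.99 to -5.05) and 44.8-fold lower in wild types (-5.48, -5.96 to -5.01). All 6 Sox11 probe sets passed the filter, and their stage differences lay between -6.66 and -5.52 in mutants and between -6.99 and -5.48 in wild types.

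Sox12, the SoxC gene least studied in the brain, showed that probe sets of one gene can differ in span. The main probe set stood at 5.24, 4.69 and 4.96 in mutant adults and at 4.78, 4.55 and 5.32 in wild-type adults. It stood at 8.20, 8.32 and 8.69 in mutant embryos and at 8.37, 8.39 and 8.55 in wild-type embryos. These values correspond to a 10.8-fold lower adult level in mutants (-3.44, -3.89 to -2.98) and an 11.7-fold lower one in wild types (-3.55, -4.01 to -3.10). The second probe set, 1439754_at, gave -1.55 in mutants and -1.91 in wild types.

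Counted by probe set, all 20 that passed the filter were lower in adults in both genotypes by limma's test, where 43% of all probe sets tested passed as lower in mutants and 43.5% in wild types. Of those 20, 3 passed without any adult array over the threshold of 4. The other 7 probe sets did not pass. Among them 4 lay at the floor on at least 10 arrays, and 3, one each for Sox3, Sox4 and Sox9, rose above 3 on embryonic arrays.

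**Figure D2:**
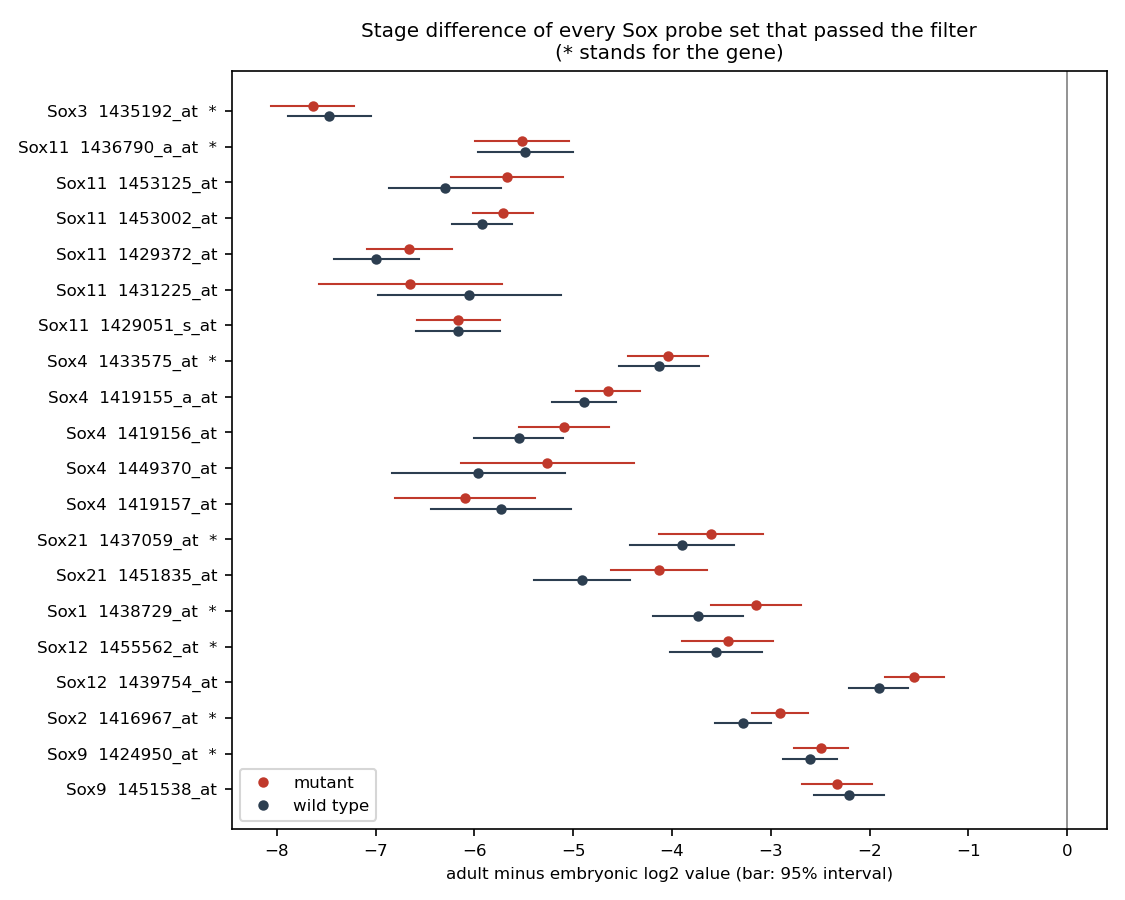
Adult minus embryonic log2 difference (horizontal axis) for each of the 20 Sox probe sets that passed the filter, in mutants (red) and wild types (dark); bars are 95% intervals and an asterisk marks the probe set that stands for the gene. All points lie left of 0, from -7.64 for Sox3 to -1.55 for Sox12 1439754_at in mutants.

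A transcript that overlaps a Sox gene did not follow it. Sox2ot, the long noncoding RNA in whose intron Sox2 lies, stood at 7.57, 7.87 and 7.52 in mutant adults and at 8.08, 7.92 and 7.55 in wild-type adults. In the embryos it stood at 8.15, 7.52 and 7.31 in mutants and at 8.46, 7.72 and 7.40 in wild types. Its adult and embryonic values overlapped, unlike those of Sox2. Overlapping long noncoding genes of Sox1, Sox4 and Sox21 had no probe set to set beside them.

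Of the 11 other Sox genes on the array 6 were measured, and in wild types 1 was higher and 3 were lower in the adult, with a median difference of -0.42. Over all genes 38.4% were higher and 43% lower, with a median of -0.08, and 6 genes are too few to set these counts apart from those shares. Sox10, of the same group as Sox9 and used by oligodendrocytes, averaged 7.14 ± 0.10 in wild-type adults and 4.66 ± 0.18 in wild-type embryos (SD, n = 3 each), and all 5 oligodendrocyte markers measured were also higher in the adult, of which Mog, Mag and Mobp passed the filter through the adults alone. Sox6, which restrains the timing of oligodendrocyte maturation, averaged 7.59 ± 0.12 in adults and 10.41 ± 0.01 in embryos. Sox5, a factor of deep-layer neurons, averaged 8.54 ± 0.01 in adults and 9.46 ± 0.95 in embryos, and its groups overlapped. Sox7, a vascular gene, was near the floor in the adult and at 4.73 ± 0.40 in the embryo, and it passed the filter through the embryos alone.

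Of the 5 POU factors measured, a family whose members bind DNA together with SOX2, 2 were higher and 2 lower in adult wild types, near the 38.4% and 43% of all genes. Pou3f3 averaged 10.68 ± 0.16 in wild-type adults and 12.58 ± 0.17 in wild-type embryos, and Pou3f4 averaged 4.15 ± 0.23 in adults and 5.57 ± 0.86 in embryos. Pou3f1 averaged 8.52 ± 0.14 in adults and 6.73 ± 0.40 in embryos, and Pou6f1 averaged 9.22 ± 0.10 in adults and 8.16 ± 0.11 in embryos (SD, n = 3 in each group). Pou3f4 was highest in both embryos of the first cross, at 6.54 in the mutant and 6.56 in the wild type, against 4.90 to 5.14 in the other embryos.

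Genes known as targets of SOX2, SOX9 or SoxC factors in neural cells were also mostly lower in the adult. Of 18 such genes, 16 were lower in adult wild types and 0 were higher, where 43% of all genes were lower and 38.4% higher. The median difference was -3.35, beside -0.08 over all genes. Nes, Tead2, Prox1 and Draxin had no adult array over the threshold of 4 and passed the filter through the embryos alone, which favours a difference between the stages in these counts. The lowest p-values belonged to Tead2, a transcription factor of the Hippo pathway, at 2.19 ± 0.00 in adults and 10.29 ± 0.12 in embryos, and to Nes, the intermediate filament nestin of neural progenitors, at 2.26 ± 0.05 and 8.99 ± 0.04 in the same order of groups. Insm1, a zinc finger gene of intermediate progenitors, was 35.6-fold lower in adult wild types and Gli3, an effector of Hedgehog signalling, 34.3-fold lower. The 2 targets that did not pass, named after their values were seen, were Prox1 (-0.68, adjusted p = 0.108) and Stmn1 (0.10, adjusted p = 0.427) by limma's test. In mutants the count was again 16 lower and 0 higher, where 42.2% and 39.5% of all genes were, with a median of -3.21.

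Markers of radial glia were mostly lower in the adult, while markers of newborn neurons lay on both sides. Of 12 radial glia markers 10 were lower and 1 was higher in adult wild types, where 43% of all genes were lower and 38.4% higher, with a median of -3.43. Pax6 and Nes among them passed the filter through the embryos alone. Pax6, the patterning factor of dorsal progenitors, averaged 3.74 ± 0.15 in adults and 10.24 ± 0.17 in embryos, and the higher one was the glutamate transporter gene Slc1a3, which astrocytes also use, at 11.52 ± 0.20 in adults and 8.59 ± 0.29 in embryos. Of 12 newborn neuron markers 6 were lower and 3 higher, near the shares of all genes, with a median of -0.54, and Nhlh1 and Eomes passed the filter through the embryos alone. Eomes, the marker of intermediate progenitors, differed by -8.98, and Dcx, the microtubule protein of migrating neurons, by -3.36, while the 3 higher ones were Mllt11 at 1.73, Stmn2 at 1.27 and Elavl3 at 0.66. Several of these genes sit in more than one list, and adult cortex also expresses Vim, Slc1a3, Tubb3, Stmn1 and Mllt11.

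**Figure D3:**
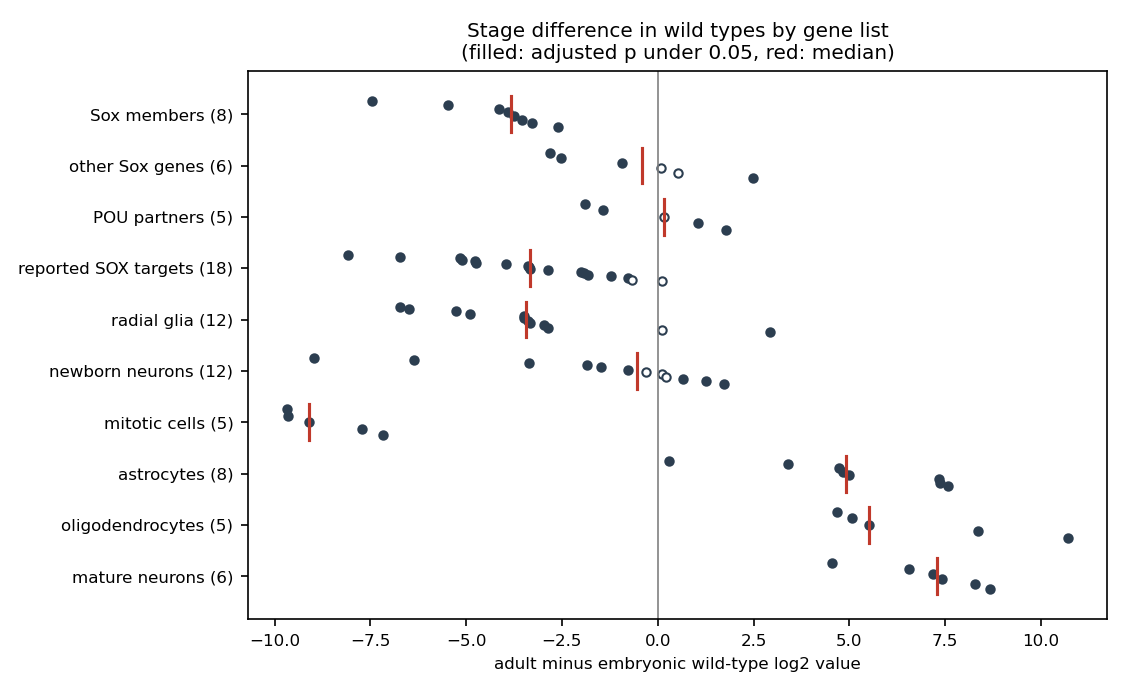
Adult minus embryonic log2 difference in wild types (horizontal axis) for the genes of each list, with the number measured in brackets; filled points had an adjusted p under 0.05 and red bars are medians. The 8 Sox genes lie between -7.47 and -2.60, as the targets and radial glia markers mostly do, while the other Sox genes and POU factors lie on both sides of 0.

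The genes whose values over the 12 arrays were most like those of each Sox gene, by Pearson correlation, reflect mainly the step between the stages, since between 2644 and 3038 genes correlated above 0.95 with each member. The closest were Yeats2, Topors and Frmd4b for Sox1, Rfc4, Ppp4r3b and Atad5 for Sox2, Col18a1, Pbk and Tk1 for Sox3, and Gpr161, Pttg1 and Adh5 for Sox4. For Sox9 they were Zfp217, Gjc1 and Rbm22, for Sox11 Nip7, Cdk7 and Rps27l, for Sox12 Mex3d, Ube2t and 2700081O15Rik, and for Sox21 Zfp81, Snrnp40 and Capza1. The highest coefficient of each member lay between 0.998 for Sox2 and 1.000 for Sox3, with 12 arrays that share 2 stages.

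No Sox gene passed the test between mutants and wild types at either stage. By limma, 0 of the 8 genes were called between mutants and wild types in adult cortex, where 0.0524% of all genes were, and 0 of 8 in embryonic telencephalon, where 0.0349% were. None of the 8 had an unadjusted p under 0.05 at either stage, while 520 of all 11449 genes did in adults and 516 in embryos. The log2 differences between mutants and wild types lay between -0.09 and 0.26 in adults and between -0.41 and 0.14 in embryos, and their adjusted p was 1 throughout. The median over the 8 genes was 0.04 in adults and -0.07 in embryos, beside 0.03 and -0.01 over all genes. With 3 arrays a group the 95% intervals still allow changes of some size, from -0.61 to 0.42 for Sox21 and from -0.27 to 0.63 for Sox1 in adults.

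**Figure D4:**
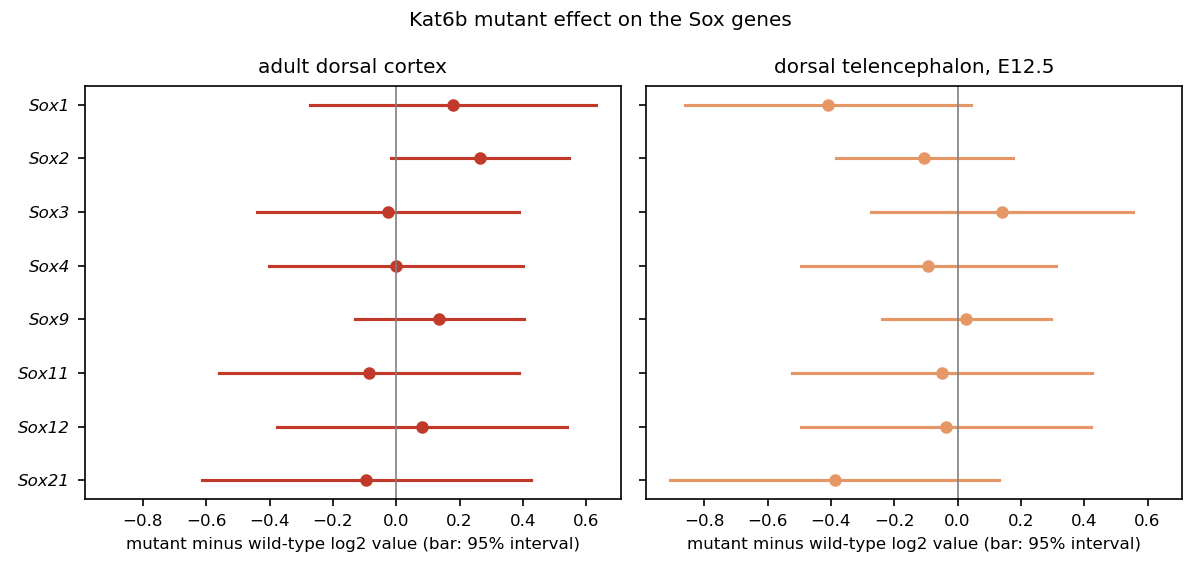
Mutant minus wild-type log2 difference (horizontal axis) of the 8 Sox genes in adult dorsal cortex (left) and dorsal telencephalon at E12.5 (right), with 95% intervals. All 16 intervals include 0, and the points lie between -0.09 and 0.26 in adults and between -0.41 and 0.14 in embryos.

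Sox2 was the only one of the 8 genes whose adult mutants and wild types did not overlap. The mutant values of 10.16 to 10.32 lay above the wild-type values of 9.82 to 10.03, a relation that 6.73% of all genes showed. Markers of endothelium and pericytes also averaged higher on all mutant adult arrays, at 6.02 to 6.05, against 5.74 to 5.87 in wild-type adults. The means of all other marker lists overlapped between genotypes in adults. Of the 4 genes averaged, Pecam1 lay at exactly 4.19 on every adult array and Cdh5 at only 2.54 to 2.90. Cldn5 overlapped between genotypes, and Pdgfrb stood at 8.62 to 8.86 in mutants and at 8.20 to 8.44 in wild types. The part of these markers in the Sox2 values was not tested. The Sox2 difference was 0.26 (95% interval -0.02 to 0.54, adjusted p = 1 by limma), and within the age pairs it was 0.14 at 155 days, 0.49 at 112 days and 0.16 in the youngest pair. In the embryos it was -0.11 (-0.39 to 0.17), with -0.33 in the first cross and 0.00 in the second, and the groups overlapped.

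Sox1 was the counterpart in the embryo. All mutant embryos, at 9.92 to 10.13, lay below all wild-type embryos, at 10.22 to 10.63, as 5.06% of all genes did. The difference was -0.41 (-0.86 to 0.04, adjusted p = 1 by limma), with -0.50 in the first cross and -0.36 in the second. In adults it was 0.18 (-0.27 to 0.63), the groups overlapped, and it turned to -0.04 without wild-type adult 2. Lhx2, a selector gene of the cortical primordium from the radial glia list, had the lowest p of that list in the embryos and also lay below wild type on all mutant arrays (-0.37, adjusted p = 0.611 by limma). The list as a whole did not follow it. Of its 12 markers 6 had a positive and 6 a negative value, with a median of -0.003. Notch1 lay above wild type on all mutant embryonic arrays (0.32).

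Sox21 gave values in the embryo that depended on the probe set. The main one differed by -0.39 between mutant and wild-type embryos (-0.91 to 0.13), by -0.39 in each of the 2 crosses, and by -0.13 without mutant embryo 3. The second one, 1451835_at, stood at 6.12, 6.85 and 7.22 in mutant embryos, against 7.49, 7.31 and 7.28 in wild-type embryos. All mutants thus lay below all wild types, as for 4.46% of all probe sets, but the mutant of the first cross was far below the others. The difference was -0.63 (-1.11 to -0.14, adjusted p = 0.878 by limma), with -1.37 in the first cross and -0.26 in the second. In adults the same probe set stood at 2.53, 2.77 and 2.51 in mutants, against 2.44, 2.44 and 2.45 in wild types. Of the wild-type adults 2 shared exactly the lowest value of this probe set, which is its own lower limit, and the higher position of all mutants was shared by 6.19% of all probe sets.

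By the probe set that stands for each gene, the SoxC genes and Sox9 had differences of at most 0.14 between mutants and wild types. Sox4 differed by -0.00 in adults and -0.09 in embryos, Sox11 by -0.09 and -0.05, Sox12 by 0.08 and -0.04, and Sox9 by 0.14 and 0.03 in the same order of stages. These groups overlapped at both stages. Other probe sets gave wider values, up to 0.48 for Sox4 1449370_at and from -0.33 (1431225_at) to 0.41 (1453125_at) for Sox11 in adults. In embryos they ran from -0.22 to 0.35 for Sox4 and from -0.21 to 0.27 for Sox11. The second probe set of Sox12, 1439754_at, stood at 7.25, 7.02 and 6.67 in mutant embryos, against 7.34, 7.24 and 7.41 in wild-type embryos, and these values overlapped. Its difference was -0.35 (95% interval -0.65 to -0.06, adjusted p = 0.959 by limma), and the lowest value was that of mutant embryo 3. Mutant adult 3 was the highest adult in Sox4 1449370_at, at 5.25 against 3.50 to 3.84 on the other adult arrays, and in Sox11 1431225_at, at 6.85 against 5.11 to 6.54. That array also had the high Ttr, whose part in these values was not tested.

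Fitted singly, the 20 probe sets gave 0 calls between mutants and wild types in adults (background 0.0246%) and 0 in embryos (background 0.0641%) by limma. An unadjusted p under 0.05 was reached by 0 probe sets in adults and by 2 in embryos, which were those of Sox12 and Sox21 just described. Over all 20292 probe sets tested, 930 reached it in adults and 920 in embryos.

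**Figure D5:**
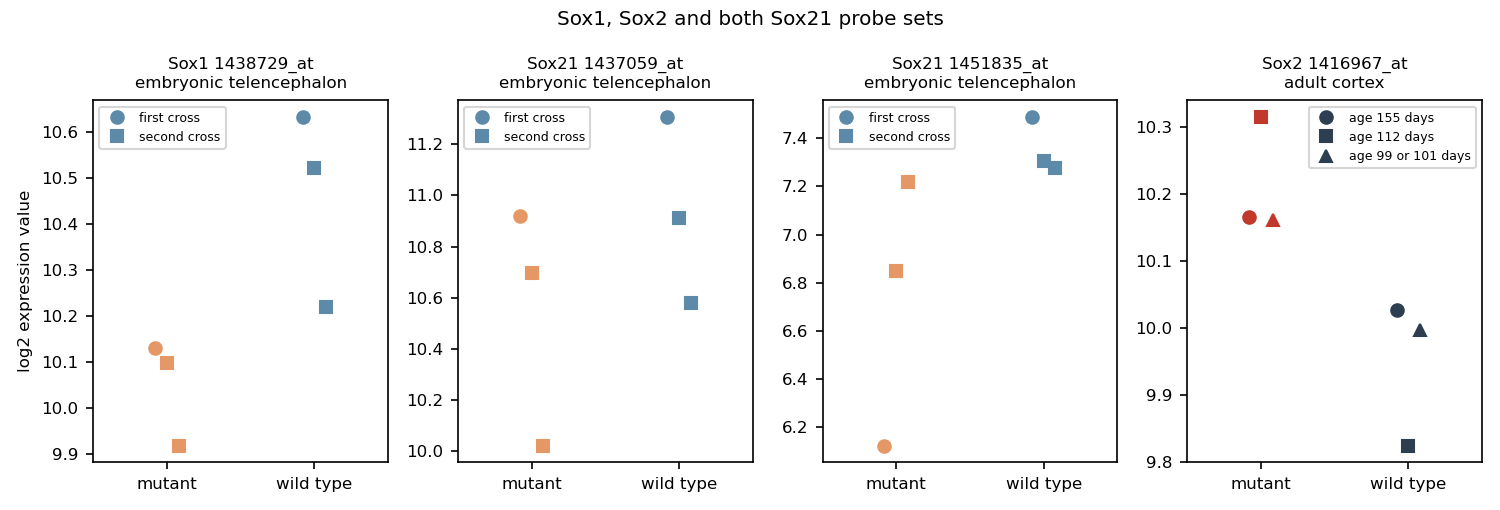
Log2 expression value (vertical axis, a different range in each panel) of Sox1, both Sox21 probe sets in embryos and Sox2 in adults, with mutants left and wild types right; points are arrays and their shapes mark the parental cross or the age. Sox1 and Sox21 1451835_at have all mutant embryos below the wild types, the mutant of the first cross is lowest for Sox21 1451835_at at 6.12, Sox21 1437059_at overlaps, and Sox2 has all mutant adults above the wild types.

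The question whether the mutant effect itself differed between the stages was tested as the adult effect minus the embryonic effect. Of the 8 genes 0 were called by limma, as were 0% of all genes. None of the 8 had an unadjusted p under 0.05, while 630 of all 11449 genes did. The differences ran from -0.17 for Sox3 to 0.59 for Sox1 (95% interval -0.05 to 1.23), and Sox2 stood at 0.37 (-0.03 to 0.77), both with an adjusted p of 0.895. Among the probe sets 0 of 20 were called, where 0.0148% of all probe sets were. Sox21 1451835_at had an unadjusted p under 0.05, as did 1086 of all 20292 probe sets.

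The partners, targets and cell type markers gave no call between mutants and wild types at either stage, in the same fit over all genes. Among the other Sox genes the lowest p belonged to Sox10 in adults (-0.34, adjusted p = 1) and to Sox7 in embryos (-0.66, adjusted p = 0.626) by limma. For the targets the median difference was 0.01 in adults and -0.02 in embryos, and Insm1 had the lowest p in embryos (-0.37, adjusted p = 0.903 by limma). All 5 POU genes measured had a negative value in the embryos, from -0.40 for Pou3f1 to -0.08 for Pou3f4, and none passed.

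The means of the marker lists of endothelium and pericytes (4 genes), microglia (3 genes) and mitotic cells (5 genes) also stood apart by genotype in the embryos. The means of all other lists overlapped, and no gene of any list passed limma's test. Endothelium and pericyte markers averaged 6.43 to 6.54 in mutant embryos and 6.09 to 6.35 in wild-type embryos, and microglia markers averaged 5.29 to 5.83 in mutants and 4.94 to 5.15 in wild types. Of the 4 endothelial and pericyte genes 3 had a positive and 1 a negative value, and Cldn5 and Pdgfrb overlapped between genotypes. Each of the 3 microglia genes, Csf1r, Cx3cr1 and Aif1, overlapped on its own. Mitotic markers averaged 10.96 to 10.99 in mutants and 10.87 to 10.93 in wild types, but of the 5 genes 3 had a positive and 2 a negative value. No member of the endothelial and microglial lists was at the floor on all embryonic arrays, but Pecam1, an endothelial adhesion gene, lay exactly at its own lower limit of 4.19 in 2 wild-type embryos. Gfap, an intermediate filament gene of astrocytes, stood at 5.22, 5.56 and 4.82 in mutant embryos, against 3.95, 2.92 and 2.39 in wild-type embryos (2.11, adjusted p = 0.148 by limma). The astrocyte list as a whole did not follow Gfap. Of its 8 markers 4 had a positive and 4 a negative value in the embryos, with a median of 0.02, and its means overlapped between genotypes. The mean of the newborn neuron markers went with the cross, at 10.06 in the mutant and 9.93 in the wild type of the first cross and at 10.43 to 10.54 in all embryos of the second. Its members did not all do so. Neurod6 stood at 10.60 and 10.20 in the first cross, against 11.92 to 12.58 in the second. Stmn2 was instead higher in the first cross, at 10.91 and 10.78, against 10.52 to 10.70. The part of these differences in the Sox values was not tested.

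Across the embryos, Sox3 and the main Sox21 probe set, 1437059_at, varied in opposite order within each genotype, which the second Sox21 probe set, 1451835_at, did not share in mutants. This pair is described because its deviations from group means had the lowest correlation of all pairs of members, at -0.865. That value covers all 12 arrays, including the adult arrays, where Sox3 lay at or next to the floor. The order was not particular to the pair. Sox1 also had the opposite order to Sox3 in both genotypes, and Sox12 had the same order as Sox3. Each order rests on 3 arrays. In mutants the array with the highest Sox3, at 10.35, had the lowest Sox21, at 10.02, and the array with the lowest Sox3, at 9.56, had the highest Sox21, at 10.92. In wild types the highest Sox3, at 9.91, went with the lowest Sox21, at 10.58, and the lowest Sox3, at 9.53, with the highest Sox21, at 11.31. Sox21 1451835_at had the same order as Sox3 in mutants, with 6.12 on the array with the lowest Sox3 and 7.22 on the one with the highest, and the opposite order in wild types, with 7.49 and 7.28 on the arrays so placed. The mutant array with the highest Sox3 had Xist and the wild-type one had Y-linked RNA, and the part of sex in the order was not tested. The 2 arrays with the lowest Sox3 and the highest Sox21 1437059_at were those of the first cross, which also had the high Dlx2.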

How the data were processed

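Per the labels' protocols, total RNA was precipitated from guanidine hydrochloride and put through 2-cycle target synthesis with biotin labelling. The deposited values are log2 expression values, 1 per probe set and array, made by the authors with GCRMA, per the submitters' processing notes, with settings not stated in those notes. They were used as deposited. GCRMA models background from probe sequence, and weak values pile up at a lower limit, so differences from it are understated. Of 18972 probe sets whose lowest value at least 2 arrays shared exactly, 14665 had it within 0.01 of 2.19, the lowest value of the data set, called the floor, and 4307 had a limit of their own above that, over 4 for 537. Arrays carry no counts, and their number limits the precision.

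Gene symbols came from the platform annotation and were updated through gene IDs. Of 45101 probe sets, 34945 had 1 symbol, 932 several and 9160 none, and 64 were controls. Those with 1 symbol and a log2 value over 4 on at least 3 arrays were kept (20292), and the probe set with the highest mean stood for a gene (11449 genes). limma (version 3.58.1, R 4.3.3) fitted 4 group means over 12 arrays with lmFit and eBayes (8 residual degrees of freedom), and p-values were adjusted by Benjamini-Hochberg over all genes, or over all probe sets in a second fit. All p-values of single genes are limma's. The fit was tested on simulated data.

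Arrays were numbered in each group in accession order. Whether replicates are separate animals is given for the adults by mouse numbers; for embryos p-values measure only the spread between these arrays. The members, lists and tests were chosen with earlier results of these data known. All genes of the members, up to 4 genes of each list by p, and the 3 genes most like each member were named. Adult ages and embryonic parents entered an alternative fit as a block. Deviations from group means correlated at 0.51 in the first cross, 0.14 to 0.25 in the second and -0.36 to -0.23 between crosses. In adults they correlated at 0.19, -0.01 and 0.27 in the age pairs. Between a mutant and a wild type of different age pairs they correlated at -0.3 to 0.23, which overlaps the values in the pairs. Other alternatives varied the filter, probe sets, scaling, variance model, weights, sex and single arrays.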

Additional observations from a re-analysis of the deposited data

Results flagged for a closer look

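One Sox probe set stood out because all its mutant arrays lay above wild type at 1 stage and below it at the other. Opposite signs alone were not particular to it. Sox1 (0.18 in adults and -0.41 in embryos) and Sox2 (0.26 and -0.11) had them too. Of the 20 probe sets 12 had a positive value in adults and 15 a negative one in embryos. Sox21 1451835_at lay above wild type on all mutant adult arrays (0.16, at 2.51 to 2.77 against 2.44 to 2.45) and below wild type on all mutant embryonic arrays (-0.63, at 6.12 to 7.22 against 7.28 to 7.49). Of all probe sets tested, 6.19% lay above wild type on all mutant adult arrays and 4.46% below it on all mutant embryonic arrays. The adult effect minus the embryonic effect was 0.78 (95% interval 0.10 to 1.47, adjusted p = 0.915 by limma), which passed 0.05 only before adjustment. So did 1086 of all 20292 probe sets tested. The adult values were within 0.6 of the floor, and 2 wild-type adults lay exactly at this probe set's own lower limit, so that mutants could only lie at or above them. For the main Sox21 probe set the same quantity was 0.29 (95% interval -0.44 to 1.03, adjusted p = 0.94 by limma).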

How the results depend on the processing

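The counts of Sox genes past limma's test were the same in each of the 25 alternatives run (24 for the difference of effects), at 0 for the 3 mutant contrasts and 8 lower in adults for both genotypes. Among probe sets 0 were called in the mutant contrasts, and 17 to 22 in wild types and 17 to 23 in mutants were lower in adults as the number tested changed from 17 to 27. Calls over all genes ran from 0 to 7 in adults, 0 to 42 in embryos and 0 to 7 for the difference. With age pair and cross as a replicate block, 0 Sox genes were called in the mutant contrasts and 8 in both stage contrasts; the block changed no call. Of 991 values under alternatives, 48 changed sign, all between groups that did not pass. Where probe sets of one gene were averaged, the adult mutant differences were 0.18 for Sox4, 0.033 for Sox11 and 0.032 for Sox21, and the differences of effects -0.0056 for Sox9 and 0.092 for Sox11. Without _s_at, _x_at and _a_at probe sets Sox11 gave 0.41 in adults and 0.63 for the difference. With array weights the values were 0.0028 for Sox21 in adults, -0.049 for Sox3 and -0.076 for Sox9 in embryos, and for the difference 0.029 for Sox3, -0.025 for Sox4 and 0.030 for Sox11. With sex as a covariate Sox12 in embryos was 0.0067 and the difference for Sox11 0.020. Without the first cross the embryonic values were 0.0044 for Sox2, -0.072 for Sox9 and 0.033 for Sox12, and the difference 0.099 for Sox11. The cause was not tested. Leaving out single arrays gave, for results that changed sign, the following lowest and highest values. In adults they were -0.039 and 0.34 for Sox1, -0.25 and 0.20 for Sox4, -0.35 and 0.055 for Sox11, -0.087 and 0.30 for Sox12, and -0.20 and 0.028 for Sox21. In embryos they were -0.19 and 0.039 for Sox2, -0.12 and 0.27 for Sox3, -0.049 and 0.10 for Sox9, -0.13 and 0.0098 for Sox11, and -0.18 and 0.066 for Sox12. For the difference they were -0.30 and 0.092 for Sox3, -0.15 and 0.29 for Sox4, -0.30 and 0.10 for Sox11, and -0.050 and 0.34 for Sox12. With the adults fitted alone 7 of the Sox genes were tested, since Sox3 did not pass the filter there. Fits of only 2 groups cannot give the difference of effects, and the mean of probe sets does not apply to probe sets fitted singly. The 3 arrays a group limit the precision, and values at the floor or at a probe set's own lower limit carry no order.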
